A study of Mus musculus with 6 samples.

Results

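Cytosolic ribosomal protein genes encode the protein part of the ribosomes that translate nuclear mRNAs. They were followed here in mouse small-intestinal organoids exposed to arachidonic acid. Members were the protein-coding genes whose symbol is Rplp0, Rplp1, Rplp2 or Rpsa or starts with Rpl or Rps and a digit, without the S6 kinase genes. This rule found 92 genes among the 53953 rows of each library. Of these, 77 are core subunit genes, 46 of the large subunit (3 of them of its stalk) and 31 of the small subunit. The other 15 are 7 paralogues, 7 retrogenes (intronless copies annotated as coding) and Rps19bp1, an RPS19-binding protein that is no part of the ribosome. Fau and Rack1, ribosomal proteins under other names, fall outside the rule and are given separately.

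The treated group was 3 libraries of C57BL/6 wt organoids from the proximal small intestine, given arachidonic acid (AA) for 3 days and then passaged. The vehicle group was 3 libraries of the same kind of organoid given 0.1% ethanol, the solvent that the AA was also dissolved in. All organoids were Matrigel cultures between passages 3 and 5, and their total RNA was collected 3 days after the passaging. The sources used here do not give the AA concentration. Nothing says whether libraries of a group came from separate animals or cultures, so the spread that the p-values rest on may be technical.

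A ribosome joins a small subunit, which reads the mRNA, to a large subunit, which forms the peptide bond. Each protein is present once per ribosome, except the acidic stalk proteins, and cells make them in matched amounts. Most of their mRNAs begin with a C followed by a run of pyrimidines, the 5' terminal oligopyrimidine (TOP) motif, through which mTOR and LARP1 control their translation and stability. Mammalian genomes hold many processed pseudogenes of these genes, here called retrocopies, whose sequence can be almost that of the parent.

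The values were fragments scaled by transcript length and library size (FPKM), from libraries with an implied 35.6 to 50.8 M fragments (M, 1e+06). On principal component 1 of the tested genes, with 85.2% of their variance, AA replicate 1 lay at 10.2, AA replicates 2 and 3 at 58.1 and 54.6, and the vehicle libraries between -41.6 and -40.4. Epithelial markers were abundant, with the 8 summing to 5085 to 5938 FPKM in AA libraries and 3597 to 3726 FPKM in vehicle libraries. The 8 fibroblast markers summed to at most 0.364 FPKM in AA libraries and 0.426 FPKM in vehicle libraries, and none reached the minimum for testing.

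Ribosomal protein mRNAs took a smaller share of the transcriptome after AA. The 92 genes held 14.0%, 14.0% and 14.3% of all transcript abundance (TPM, FPKM rescaled to the same total in each library) in the AA libraries, against 18.9%, 17.7% and 17.3% in the vehicle libraries. The groups did not overlap, and the means were 14.11% ± 0.172 in AA libraries and 17.97% ± 0.817 in vehicle libraries (SD, n = 3 each), a difference of -3.86 percentage points. The median FPKM of the 77 core genes was 1278, 1257 and 1304 in AA libraries and 1796, 1676 and 1625 in vehicle libraries. Mitochondrially encoded transcripts also held a smaller share, 2.71%, 2.43% and 2.18% of TPM in AA libraries and 3.43%, 4.22% and 3.20% in vehicle libraries. With those transcripts left out of the total, the difference of the ribosomal protein share was -4.18 points. In bulk RNA, fewer cells rich in these mRNAs and less of them per cell cannot be told apart.

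**Figure D1:**
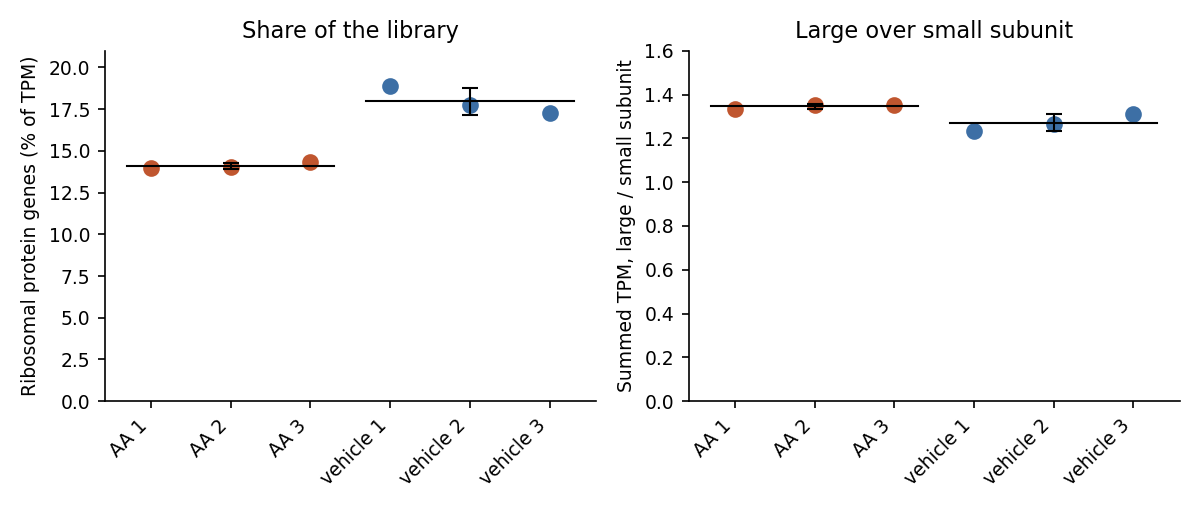
Left, summed TPM of the 92 ribosomal protein genes as a percent of each library; right, summed TPM of the 46 large-subunit genes over that of the 31 small-subunit genes. Points are libraries, lines are group means and bars are SD (n = 3); the AA libraries lie at 14.0% to 14.3%, below every vehicle library, and at a large-to-small ratio of 1.33 to 1.35, above every vehicle library.

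The decrease ran through most of the family. Of the 92 members, 87 averaged 1 FPKM or more across the 6 libraries and were tested, 67 of them fell (adjusted p under 0.05 with limma over all 12913 tested genes) and 0 rose. Among all tested genes, 19.4% fell and 20.8% rose. At an unadjusted p under 0.05, 1 member was higher, Rpl34, and limma-voom on recovered fragments called 0 higher. The median log2 fold change of log2(FPKM + 1), AA minus vehicle, was -0.40 over the 87 members and -0.03 over all tested genes. For 73 of the 87, every AA library lay below every vehicle library, against 27.5% of all tested genes. None of the 87 passed the minimum through one group alone. The 67 calls were 44 under quantile normalization, which also moved the core median to -0.23, and 37 with no filter on low values.

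The size of the change was narrow across the core. Of the 77 core genes 60 fell, the quartiles of their log2 fold changes were -0.49 and -0.31, and 65 lay within 0.25 of the core median of -0.40. The order of the core levels was largely kept, with a Spearman correlation of 0.98 between the group means over 77 genes that share libraries and gene lengths. At least 1000 FPKM was reached by 48 core genes in AA libraries and by 59 in vehicle libraries. Among the vehicle libraries, replicate 1 held the highest value for 59 of the 77. AA replicate 1, which lay between the groups over the whole transcriptome, lay near the other AA libraries in the median of these genes. On a scale where 0 is the vehicle mean and 1 the mean of AA replicates 2 and 3, its median position was 0.97 for the core genes that fell and 0.62 for all genes that passed the test in either direction. Single core genes varied, as with Rps13 at 0.56 and Rpl22 at 1.52, and the median of the 3 stalk genes was 0.71.

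**Figure D2:**
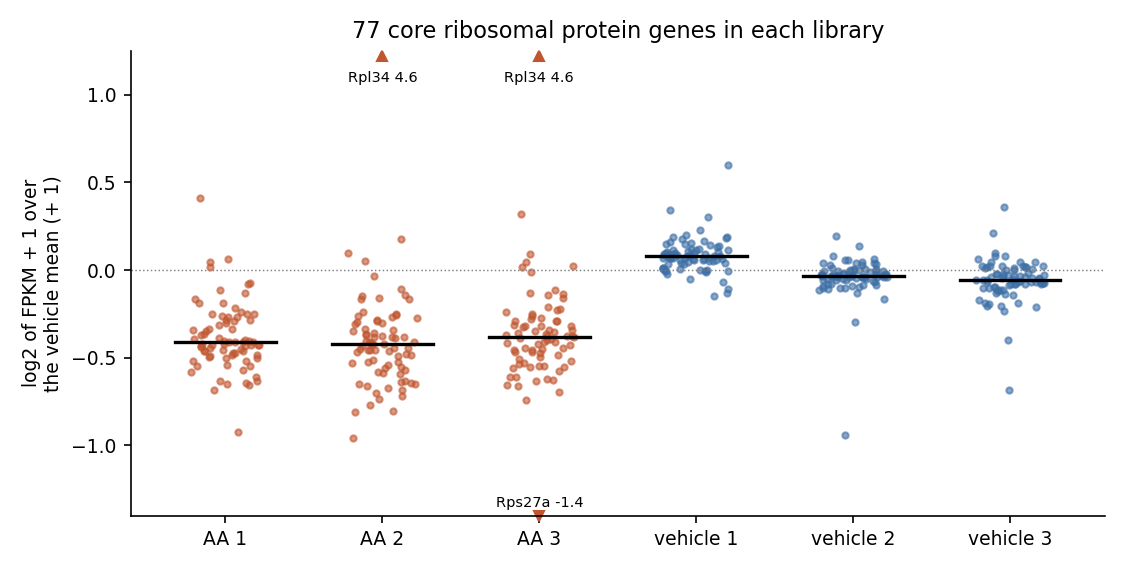
Each point is 1 of the 77 core genes in 1 library, as the log2 of FPKM + 1 over the vehicle mean + 1, and lines are medians. The medians of the AA libraries lie between -0.42 and -0.38 and those of the vehicle libraries between -0.06 and 0.08; triangles with a number mark genes beyond the axis, Rpl34 in AA replicates 2 and 3 and Rps27a in AA replicate 3.

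Other abundant genes are set beside the core here. They were the 67 non-members with a vehicle mean at or above 654 FPKM, the 10th percentile of the core genes in vehicle libraries. Retrocopies and mitochondrially encoded genes were left out, and Fau and Rack1 are among the 67. Of these 67, 41.8% fell and 23.9% rose, with a median of -0.14. Choosing genes by their vehicle level alone favours genes that are lower after AA. Their difference from the core was not tested.

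All 3 stalk genes fell. The stalk is the lateral arm of the large subunit that recruits the elongation factor GTPases. Rplp0, its anchor, had 3709, 3144 and 3383 FPKM in AA libraries and 5644, 5101 and 4959 FPKM in vehicle libraries. The groups were well apart, with a log2 fold change of -0.62 ± 0.10 (SE; adjusted p = 0.0045). Rplp1 fell by 0.54 ± 0.11 on the same scale (adjusted p = 0.0098) and Rplp2 by 0.40 ± 0.08 (adjusted p = 0.0090). Rpl12, which sits at the stalk base, had 1042, 911 and 1005 FPKM in AA libraries against 1729, 1545 and 1497 FPKM in vehicle libraries, a log2 fold change of -0.69 ± 0.09 (adjusted p = 0.0024).

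Of the 46 large-subunit genes, stalk included, 33 fell, with a median log2 fold change of -0.36. Rpl5 binds 5S rRNA together with Rpl11 and can hold MDM2 away from p53. It had 1278, 1290 and 1304 FPKM in AA libraries and 2219, 2019 and 1779 FPKM in vehicle libraries, and its log2 fold change was -0.63 ± 0.09 (adjusted p = 0.0037). Its partner Rpl11 had 1298, 1497 and 1550 FPKM in AA libraries and 1789, 1676 and 1561 FPKM in vehicle libraries. These groups were apart by a small margin and did not pass the test, at -0.21 ± 0.10 (adjusted p = 0.12). Rpl3, near the peptidyl transferase centre, fell by 0.46 ± 0.07 (adjusted p = 0.0039). Rpl10, which joins the large subunit late, in the cytoplasm, had 1297, 1143 and 1178 FPKM in AA libraries and 1593, 1600 and 1610 FPKM in vehicle libraries, and fell by 0.41 ± 0.07 (adjusted p = 0.0064). Of the proteins that line the exit tunnel, Rpl4 and Rpl39 were both lower, Rpl4 by a log2 fold change of -0.31 ± 0.07 (adjusted p = 0.014) and Rpl39 by one of -0.42 ± 0.07 (adjusted p = 0.0047). Larger changes included those of Rpl21, at -0.72 ± 0.10 (adjusted p = 0.0033), and Rpl36a, at -0.54 ± 0.07 (adjusted p = 0.0022). Retrocopies held 66.7% to 67.1% of the Rpl21 family in AA libraries and 58.5% to 66.7% in vehicle libraries. With retrocopies added to the parent, Rpl21 was at -0.52 ± 0.06 (adjusted p = 0.0016).

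Of the 31 small-subunit genes 27 fell, with a median log2 fold change of -0.45. Rps6, the substrate of the S6 kinases, had 2030, 2007 and 1944 FPKM in AA libraries and 2772, 2655 and 2652 FPKM in vehicle libraries. Its replicates were tight in both groups, and it fell by 0.43 ± 0.07 (adjusted p = 0.0041). Rps19, the gene most often mutated in human Diamond-Blackfan anaemia, had 1159, 1079 and 1133 FPKM in AA libraries and 1796, 1649 and 1625 FPKM in vehicle libraries, at -0.59 ± 0.07 (adjusted p = 0.0021). Rps14, the ribosomal gene of the human 5q- syndrome, had the lowest core log2 fold change, -0.78 ± 0.19 (adjusted p = 0.017). It had 2674, 2898 and 3136 FPKM in AA libraries and 6422, 4946 and 3841 FPKM in vehicle libraries, a wide spread in which vehicle replicate 1 stood highest. Rps3, at the mRNA entry site, fell by 0.58 ± 0.11 (adjusted p = 0.0079), Rps18, a protein of the small-subunit head, by 0.50 ± 0.11 (adjusted p = 0.011), Rps4x by 0.49 ± 0.07 (adjusted p = 0.0032) and Rpsa, also known as the laminin receptor, by 0.34 ± 0.08 (adjusted p = 0.018). Rps27a, which encodes a fusion of ubiquitin with a small-subunit protein, had erratic values of 857, 686 and 318 FPKM in AA libraries and 1283, 440 and 818 FPKM in vehicle libraries. The groups overlapped and the difference of -0.43 ± 0.48 did not pass (adjusted p = 0.50).

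The summed levels of the subunits are described by their shares and their ratio. Small-subunit mRNAs held 5.89% ± 0.0618 of TPM in AA libraries and 7.75% ± 0.479 in vehicle libraries, 24.0% less, and large-subunit mRNAs held 7.93% ± 0.116 in AA libraries and 9.85% ± 0.326 in vehicle libraries (SD, n = 3 each), 19.5% less. The ratio of large to small was 1.33, 1.35 and 1.35 in AA libraries and 1.24, 1.27 and 1.31 in vehicle libraries, without overlap. With retrocopies added to their parents it was 1.36, 1.37 and 1.38 in AA libraries and 1.26, 1.29 and 1.34 in vehicle libraries, again without overlap. No test was made of this ratio, since it is a score over the members.

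**Figure D3:**
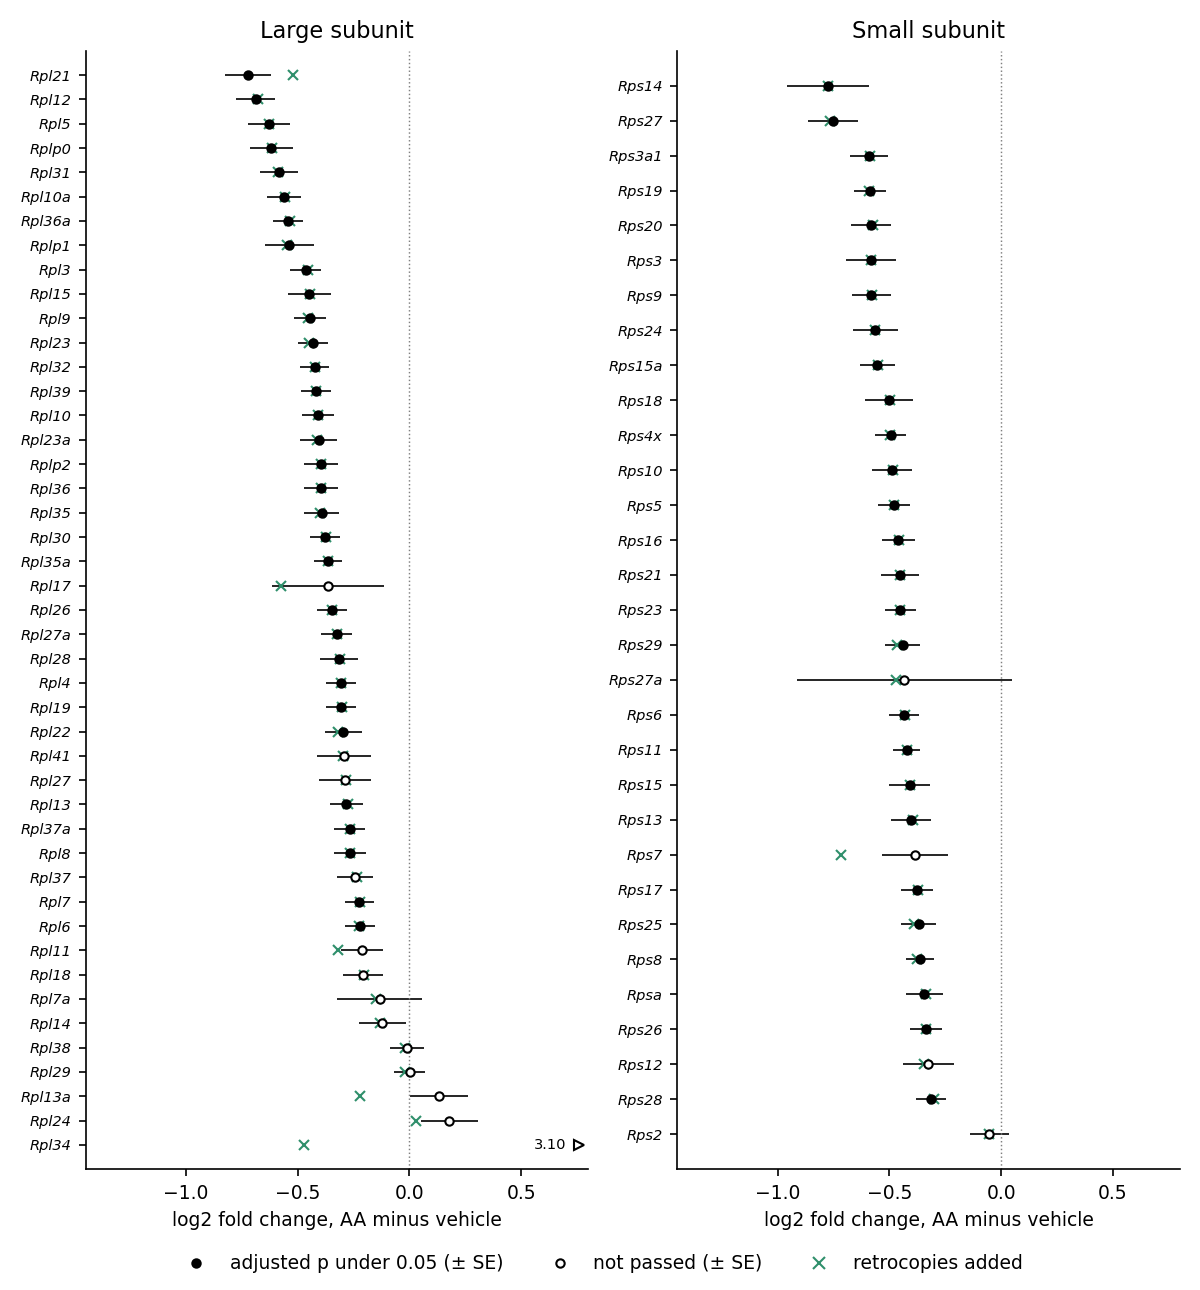
Log2 fold change, AA minus vehicle, of the core genes with its SE (3 libraries per group), large subunit left (1 gene not drawn) and small subunit right. Filled points passed an adjusted p under 0.05, open points did not (13 and 4 genes), green crosses are the values with retrocopies added to the parent, and the arrow marks Rpl34 at 3.10, whose cross lies at -0.47.

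A small set of core genes showed little or no difference. Rps2, a protein of the mRNA entry tunnel and the most abundant core gene in AA libraries, had 3947, 3853 and 4210 FPKM in AA libraries and 4469, 3913 and 4083 FPKM in vehicle libraries. These ranges overlapped, at a log2 fold change of -0.05 ± 0.09 (adjusted p = 0.65), and quantile normalization turned it to 0.36 (adjusted p = 0.0082). Rpl38, which is needed for translation of some Hox mRNAs in mice, had 699, 794 and 789 FPKM in AA libraries and 729, 787 and 778 FPKM in vehicle libraries, at -0.01 ± 0.08 (adjusted p = 0.93). Rpl29, without which mice are viable but small, was at 0.00 ± 0.07 (adjusted p = 0.99), with 940, 887 and 902 FPKM in AA libraries and 911, 856 and 961 FPKM in vehicle libraries. A p that misses the threshold does not show that these levels were equal. The signs of all 3 changed under other settings.

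Several members sat at the edge of the threshold. Just inside it were Rpl22 (adjusted p = 0.029), Rpl7 (adjusted p = 0.035) and Rpl6 (adjusted p = 0.040), with log2 fold changes of -0.30, -0.22 and -0.22. Just outside it were Rpl37 (adjusted p = 0.052) and Rps12 (adjusted p = 0.059), at -0.24 and -0.33. When each library was left out in turn, 51 of the 67 calls held in every fit and 16 were lost in at least 1. Rpl6, Rpl7 and Rpl7l1 were lost in 5 of the 6 fits, Rpl8, Rpl13, Rpl22, Rpl28, Rpl37a and Rpsa in 4, Rpl4, Rps13, Rps14 and Rps26 in 2, and Rpl19, Rpl27a and Rps28 in 1.

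Some members are harder to measure because other genes share their sequence or position. Rpl24 and Rpl13a had 6.27 to 8.50 FPKM and 79.4 to 107 FPKM in AA libraries, and 5.64 to 6.65 FPKM and 75.2 to 93.1 FPKM in vehicle libraries, far under the median core gene. In the GENCODE M21 annotation, 47.0% of the exonic bases of Rpl24 and 35.4% of those of Rpl13a are also exons of other genes on the same strand. Gm28037 is the 1 such gene for Rpl24, and Gm45713 shares the most bases with Rpl13a among 3, and both are listed at 0 in all 6 libraries. Their differences of 0.18 ± 0.13 (adjusted p = 0.29) and 0.13 ± 0.13 (adjusted p = 0.44) did not pass, and their levels are uncertain. Exons of other genes on the opposite strand cover 66.2% of Rpl35 and 59.7% of Rpl23a, and the sources used here do not say whether counting used strand. Levels of different members also depend on the length they were divided by, the mean over annotated transcripts, which ran from 383 to 1860 bases in the core.

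Retrocopies were common. Alignment of the annotated transcripts (at least 90% identity over at least 70% of the copy) found 1117 retrocopies, 751 of them above 0 FPKM in some library, and 76 of the 77 core genes had at least 1. The largest case was Rpl34, a large-subunit protein, whose coding sequence on chromosome 3 differs from Rpl34-ps1 on chromosome 6 at 2 of 354 bases. Both places are shown as 41-base windows of the GENCODE M21 transcripts, coding bases 112 to 152 and 298 to 338, with the differing base in capitals, because no other coding base differs.
Rpl34, bases 112 to 152: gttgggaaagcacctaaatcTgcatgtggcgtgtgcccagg
Rpl34-ps1, the same bases: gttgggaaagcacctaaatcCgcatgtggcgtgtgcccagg
Rpl34, bases 298 to 338: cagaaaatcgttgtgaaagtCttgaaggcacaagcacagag
Rpl34-ps1, the same bases: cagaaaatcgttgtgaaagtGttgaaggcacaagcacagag

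Rpl34 had 36.5, 847 and 896 FPKM in AA libraries and 39.9, 32.5 and 32.2 FPKM in vehicle libraries. Rpl34-ps1 had 1855, 161 and 191 FPKM in AA libraries and 2868, 2499 and 2385 FPKM in vehicle libraries. AA replicates 2 and 3 thus held most of the pair at the parent, while AA replicate 1 and all vehicle libraries held it at the copy. Retrocopies made up 96.5%, 13.2% and 14.1% of the Rpl34 family in AA libraries and 97.5%, 97.6% and 97.5% in vehicle libraries. The fit of Rpl34 alone gave 3.10 ± 1.17 (adjusted p = 0.073), and 4.61 (adjusted p = 5.6e-08) without AA replicate 1. The family sum, scaled to the parent's length, was 1031, 976 and 1043 FPKM in AA libraries and 1575, 1368 and 1307 FPKM in vehicle libraries. That sum had no such jump, with groups apart and a log2 fold change of -0.47 ± 0.09 (adjusted p = 0.0071). Which locus the RNA came from was not tested.

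Other parents showed shifts as well. The X-linked Gm6472 differs from Rps7, a small-subunit protein, at 3 of 585 coding bases, and retrocopies held 38.1%, 17.9% and 19.0% of the Rps7 family in AA libraries and 38.9%, 41.1% and 42.8% in vehicle libraries. Rps7 alone did not pass, at -0.38 ± 0.15 (adjusted p = 0.076), and the family fell by 0.72 ± 0.10 (adjusted p = 0.0029), near the lower end of the core. For Rpl11, retrocopies held 16.5%, 6.68% and 7.81% in AA libraries and 16.1%, 16.7% and 17.6% in vehicle libraries, and the family fell by 0.32 (adjusted p = 0.015). For Rpl17, a protein of the exit tunnel, it was vehicle replicate 3 that stood apart, with 39.7%, 41.7% and 38.7% at retrocopies in AA libraries and 40.2%, 40.1% and 61.2% in vehicle libraries. Rpl17 alone was at -0.36 ± 0.25 (adjusted p = 0.28) and its family at -0.58 (adjusted p = 0.0067).

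**Figure D4:**
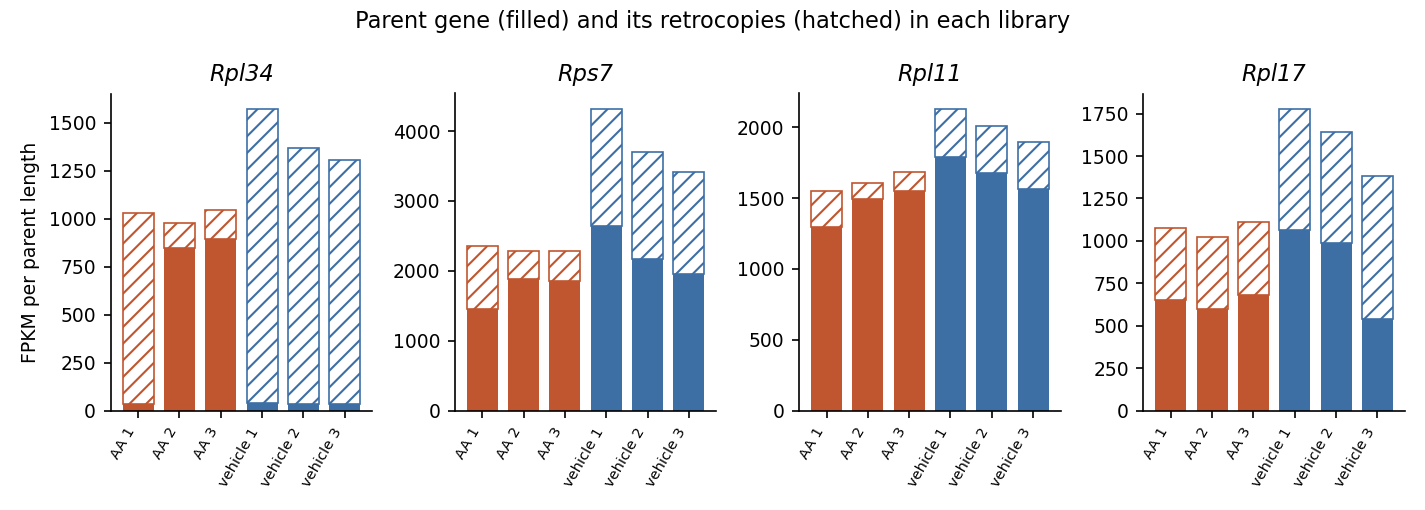
FPKM of 4 parents (filled) and of their retrocopies scaled to the parent's length (hatched), stacked, in each library (AA orange, vehicle blue). The boundary moves in AA replicates 2 and 3 for Rpl34, Rps7 and Rpl11 and in vehicle replicate 3 for Rpl17, while the whole bars of the AA libraries lie below those of the vehicle libraries, for Rpl34 at 976 to 1043 FPKM against 1307 to 1575 FPKM.

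Over the 76 core genes with a retrocopy, the retrocopy share spanned a median of 1.08 percentage points across the libraries, and it spanned more than 10 points in 8 of them. With every retrocopy added to its parent before the fit, an alternative chosen after seeing the data, 66 of the 77 core genes fell and 0 rose, against 19.0% and 21.3% of all genes in that fit, and the core median was -0.41. The 6 core genes that passed only then were Rpl11, Rpl17, Rpl34, Rpl37, Rps7 and Rps12, and none of the 60 was lost. Rpl13a changed sign, to -0.22 (adjusted p = 0.19). Of the 169 retrocopies that are not members and averaged 5 FPKM or more, 96 fell, against 19.4% of all tested genes, and 1 rose, with a median of -0.37. The others did not pass. Fragments of these retrocopies cannot be told apart from fragments of the parent placed at the copy.

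Among the retrogenes counted as coding, 5 of the 7 were tested and 4 fell. Rps27rt, an intronless copy of Rps27 on chromosome 9, had the lowest log2 fold change of the 87 tested members, -0.83 ± 0.14 (adjusted p = 0.0055), with 478, 685 and 526 FPKM in AA libraries and 1079, 934 and 957 FPKM in vehicle libraries. Its parent Rps27, on chromosome 3, had 1072, 870 and 1074 FPKM in AA libraries and 1809, 1724 and 1538 FPKM in vehicle libraries, at -0.75 ± 0.11 (adjusted p = 0.0036). Their 255 coding bases are identical, so the split between them is uncertain, and the family sum of Rps27 with all its retrocopies fell by 0.77 (adjusted p = 0.0012). The paralogue Rps27l, also on chromosome 9, differs at 61 of the 255 bases. The first 60 coding bases of the 3 genes, from GENCODE M21 transcripts, are shown for this contrast between a paralogue and a copy, with the bases of Rps27l that differ from Rps27 in capitals.
Rps27: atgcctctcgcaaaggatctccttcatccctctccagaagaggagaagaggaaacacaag
Rps27rt: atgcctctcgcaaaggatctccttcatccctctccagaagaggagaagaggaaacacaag
Rps27l: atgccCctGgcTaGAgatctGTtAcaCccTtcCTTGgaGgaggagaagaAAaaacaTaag

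Paralogues did not all follow their parents. Rps27l, a paralogue induced by p53 in human cells, had 412, 489 and 556 FPKM in AA libraries and 440, 399 and 381 FPKM in vehicle libraries. The groups overlapped through AA replicate 1, and the difference of 0.25 ± 0.12 did not pass (adjusted p = 0.14), while without that library it was 0.36 (adjusted p = 0.0075). Relative to Rps27 it stood at 38.5%, 56.2% and 51.8% in AA libraries and 24.3%, 23.1% and 24.7% in vehicle libraries, without overlap. Rpl22l1, a paralogue of Rpl22 that can take its place in the ribosome, fell by 0.60 ± 0.10 (adjusted p = 0.0058), with 144, 115 and 119 FPKM in AA libraries and 205, 183 and 182 FPKM in vehicle libraries. It stood at 28.5%, 20.5% and 21.1% of Rpl22 in AA libraries and 29.1%, 26.7% and 29.9% in vehicle libraries, which overlapped, and Rpl22 itself had a log2 fold change of -0.30 ± 0.08. Rpl7l1 fell by 0.35 ± 0.09 (adjusted p = 0.027) and kept 3.57% to 4.11% of Rpl7 in AA libraries and 3.97% to 4.38% in vehicle libraries. Rpl36al had at most 2.08 FPKM, did not pass at 0.05 ± 0.12 (adjusted p = 0.74) and has retrocopies that held most of its family. Rpl3l, the striated muscle form of Rpl3, reached at most 0.275 FPKM, and Rpl10l and Rpl39l, expressed mainly in the testis, were listed at 0 in all libraries, as were the retrogenes Rpl36-ps4 and Rpl9-ps1.

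Ribosomal proteins that the rule leaves out were also lower where they are given here. Rack1, a signalling scaffold on the small subunit, fell by 0.59 ± 0.09 (adjusted p = 0.0049), with 1079, 983 and 1059 FPKM in AA libraries and 1751, 1530 and 1421 FPKM in vehicle libraries. Fau, a ubiquitin-like fusion with a small-subunit protein, fell by 0.48 ± 0.11 (adjusted p = 0.014).

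Many starts of core genes, though not all, carry sequences that the rule did not use. In RefSeq promoters of build GRCm38.p6, 57 of the 77 core genes matched a start. A gene with several starts was counted if any of them had the sequence. A C followed by at least 7 C or T on the gene's strand, within 25 bases on either side of the start, stood in 30 of these 57 (52.6%) and in 17.7% of 27025 genes. CGGAAG on either strand in the 300 bases around the start, a core of ETS factor motifs, stood in 40 of 57 (70.2%) and in 18.8% of all genes. TATAAA in the 50 bases before the start stood in 0 of 57 and in 3.15% of all genes. A match is only a description of these letters. The 30 genes with the pyrimidine run had a median log2 fold change of -0.39 and the 27 without it one of -0.41, and their ranges, -0.77 to -0.02 and -0.72 to 0.03, overlapped almost wholly (retrocopies added). The 15 bases on either side of the start are shown for the core genes at both ends of that range. For a gene with several starts, the one with the longest run was taken. The part of a run of at least that length that falls in the window is in capitals.
Rps27, -0.77, chr3:90213634-90213663, minus strand: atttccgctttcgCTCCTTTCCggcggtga
Rps7, -0.72, chr12:28635939-28635968, minus strand: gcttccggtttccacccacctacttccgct
Rpl12, -0.68, chr2:32961697-32961726, plus strand: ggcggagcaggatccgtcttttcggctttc
Rpl5, -0.63, chr5:107900513-107900542, plus strand: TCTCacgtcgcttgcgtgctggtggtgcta
Rpl14, -0.13, chr9:120571502-120571531, plus strand: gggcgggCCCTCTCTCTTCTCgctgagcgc
Rps2, -0.06, chr17:24720048-24720077, plus strand: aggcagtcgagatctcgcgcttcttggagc
Rpl38, -0.02, chr11:114668565-114668594, plus strand: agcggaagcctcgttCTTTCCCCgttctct
Rpl24, 0.03, chr16:55966260-55966289, plus strand: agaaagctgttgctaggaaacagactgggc
Runs occur at both ends, in Rps27 as in Rpl38 and Rpl14, and so do starts without one, in Rps7 and Rpl12 as in Rps2 and Rpl24. The annotated start need not be the start used in these organoids.

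Other parts of the translation apparatus did not move as one with the ribosomal proteins. The shares over all tested genes, for comparison, were 19.4% lower and 20.8% higher. Among 18 tested elongation factors and other TOP mRNA genes, 6 fell and 0 rose, with a median of -0.13. The 4 with the smallest p were Tpt1, the translationally controlled tumour protein, at -0.71 ± 0.08 (adjusted p = 0.0018), the elongation factor subunit Eef1b2, at -0.69 ± 0.10 (adjusted p = 0.0032), the nascent chain protein Naca, at -0.38 ± 0.05 (adjusted p = 0.0031), and Cox7a2l, a mitochondrial respiratory supercomplex factor, at -0.50 ± 0.08 (adjusted p = 0.0055). Of 28 initiation factor genes 1 fell and 8 rose, with a median of 0.10, the risen ones including Eif2b2, Eif2b3 and Eif2b5, subunits of the guanine nucleotide exchange factor of eIF2, and Eif3d.

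Genes that build ribosomes passed in both directions, and most did not pass. For comparison, 19.4% of all tested genes fell and 20.8% rose. Of 54 ribosome biogenesis genes 5 fell, 9 rose and 40 did not pass, with a median of 0.05. Bysl, of small-subunit maturation, rose by 0.58 ± 0.11 (adjusted p = 0.0072), and Heatr1, Gtpbp4 and Rrp1b rose by 0.34 to 0.35. Of 12 RNA polymerase I genes 2 fell and 2 rose. Ubtf, the upstream binding factor of rRNA genes, fell by 0.57 ± 0.11 (adjusted p = 0.0079), and Rrn3, the initiation factor of that polymerase, rose by 0.36 ± 0.08 (adjusted p = 0.014). Of 19 genes of mTOR signalling and LARP1, 2 fell and 3 rose, and of 11 transcription factors linked to ribosomal protein genes 1 fell and 1 rose. Of 9 import and chaperone genes 1 fell and 1 rose, Tsr2, the Rps26 escort, with -0.56 ± 0.16 (adjusted p = 0.032), and the histone chaperone Nap1l1, with 0.47 ± 0.06 (adjusted p = 0.0027).

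Genes listed under ribosome rescue and quality control were higher where they passed. Of the 11 tested 7 rose, against 20.8% of all tested genes, and 0 fell, with a median log2 fold change of 0.36. The list also holds Mdm2, which is no rescue factor but the ubiquitin ligase of p53 that free Rpl5 and Rpl11 bind. Mdm2 had 53.6, 74.4 and 76.1 FPKM in AA libraries and 29.9, 31.7 and 29.0 FPKM in vehicle libraries. Every AA library was higher, replicate 1 the least, at 1.13 ± 0.14 (adjusted p = 0.0021). Whether this rise has a link to ribosomal proteins was not tested. Ltn1, the ligase for stalled chains, rose by 0.48 ± 0.09 (adjusted p = 0.0067), the helicase Ascc3 by 0.47 ± 0.09 (adjusted p = 0.0072) and the recycling factor Abce1 by 0.36 ± 0.07 (adjusted p = 0.0072).

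**Figure D5:**
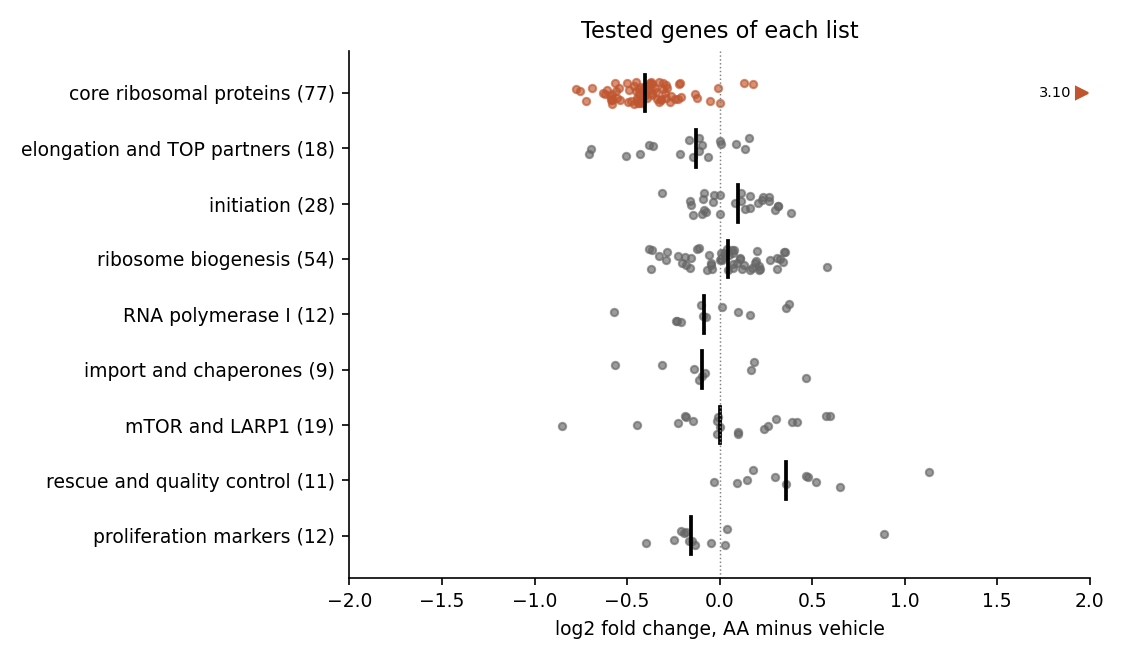
Log2 fold change, AA minus vehicle, of the tested genes of 9 lists, with the number tested in brackets and the median as a line. The core ribosomal protein genes lie at a median of -0.40, the elongation and TOP list at -0.13, the initiation list at 0.10 and the rescue and quality control list at 0.36; the arrow marks Rpl34 at 3.10.

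Cell type markers moved in the same libraries, in which 19.4% of all tested genes fell and 20.8% rose. Of 9 tested goblet, Paneth and enteroendocrine markers 8 fell and 0 rose, with a median of -2.04, and the 10 on the list summed to 1116, 683 and 872 FPKM in AA libraries and 3979, 3570 and 2798 FPKM in vehicle libraries. Of 8 enterocyte markers 4 fell and 2 rose, with a median of -1.07. Their sum nevertheless was higher, 5095, 2447 and 2001 FPKM in AA libraries and 1329, 1660 and 1428 FPKM in vehicle libraries. Of 6 crypt stem cell markers 2 fell and 2 rose, with a median of -0.02. This list summed to 422, 377 and 378 FPKM in AA libraries and 658, 617 and 580 FPKM in vehicle libraries. Of 12 proliferation genes 0 fell and 1 rose, Rrm2, with a median of -0.16. Of 8 immune markers Cd14 and Cd68 were tested and both rose. The list summed to 8.81, 28.6 and 21.4 FPKM in AA libraries and 5.03, 5.18 and 4.14 FPKM in vehicle libraries, while the pan-leukocyte gene Ptprc averaged 0.0302 FPKM in AA libraries and 0.00902 FPKM in vehicle libraries. Of the 5 endothelial and the 6 muscle and glia markers 0 were tested, and their sums were at most 0.392 and 1.93 FPKM in AA libraries and 0.196 and 1.37 FPKM in vehicle libraries. What part these shifts have in the ribosomal protein decrease was not tested.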

How the data were processed

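The authors deposited FPKM per gene and library. The unit and the length used are inferred from the values, since 96.3% to 96.8% of values under 100 fragments fell within 0.1 of whole multiples of 1 step per library once multiplied by the mean transcript length in GENCODE M21. The submitters' processing notes name featureCounts 1.5.0-p3, StringTie 1.3.3b and HISAT2 2.0.5, without roles. The sources used here give no build, annotation or strandedness. Symbols were found for 53274 rows.

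Genes averaging 1 FPKM or more across the 6 libraries were tested with limma 3.58.1 (R 4.3.3) on log2(FPKM + 1), with the group as the 1 term and a variance trend, adjusting by Benjamini-Hochberg over all 12913 genes. Fold changes on this scale understate those of low genes. Retrocopies were sought with BLAST+ 2.17.0 among annotated processed pseudogenes, unnamed Gm-numbered genes and the retrogenes. Sequences came from GENCODE M21 transcripts and RefSeq promoters. Python 3.11.15 was used with pandas 2.3.3 and matplotlib 3.10.9. The test was tried on simulated data.

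Full statistics went to the 8 highest and 8 lowest members, the 3 smallest p in each direction, tested paralogues with their parents, 12 further members and up to 4 genes of each other list. Some genes that this rule names are not reported here. Rpl17, Rps7, Rps12, Rpl6 and Rpl37 were added after their values were seen. Members and lists were chosen with earlier results of these data known. Settings tried were a pseudocount of 0.1, other filters, scalings, limma-voom on recovered fragments, a replicate block, and leaving out each library in turn.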

Additional observations from a re-analysis of the deposited data

How the results depend on the processing

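The count of members that fell, 67 of 87, was 37 with no filter on low values, with all 53953 rows tested, and 44 with quantile normalization, which called 1 member higher, Rps2, and gave a median log2 fold change of -0.24 over the members. It was 64 to 69 under TPM, median-of-ratios scaling, TPM without members and mitochondrial genes, limma-voom, a pseudocount of 0.1, a minimum of 5 FPKM or retrocopies added, all with 0 higher. Not all of these counts are out of 87. With retrocopies added, 69 of the 82 members left fell, since the retrogenes joined their parents. The minimum of 5 FPKM left out Rpl36al. With a library left out the count of members that fell ran from 53 to 68, with 0 to 2 higher, the 2 being Rpl34 and Rps27l without AA replicate 1. The difference in the share of TPM then ran from -4.20 to -3.41 points. As a share of recovered fragments that difference was -2.67 points. Nothing says whether the replicate numbers pair cultures. Deviations correlated at -0.08, 0.21 and -0.06 for same-numbered libraries and from -0.18 to 0.19 for differently numbered ones. With 3 libraries per group such deviations balance each other, so these correlations cannot decide whether cultures were paired. With the replicate block 61 fell and 0 rose, the calls lost being those of Rpl6, Rpl7, Rpl8, Rpl22, Rpl28 and Rpl37a. With retrocopies added, Rpl34 (-0.47), Rpl13a (-0.22), Rpl36al (-0.18) and Rpl29 (-0.022) changed sign. Under quantile normalization, Rpl4 (0.033), Rpl6 (0.090), Rpl8 (0.024) and Rpl28 (0.085), which all fell in the main fit, changed sign. So did Rpl14 (0.074), Rpl18 (0.15), Rpl41 (0.034) and Rps2 (0.36), which had not passed there. Sign changes with a library left out are given only for members with full statistics. Rps2 changed sign also under TPM (0.0070), and with a library left out it ran from -0.095 to 0.0012. Rpl29 changed sign with members and mitochondrial genes left out of TPM (-0.029) and ran from -0.041 to 0.042 with a library left out. Rpl38 did so under TPM (0.049), median of ratios (0.011) and quantile normalization (0.054) and ran from -0.044 to 0.050 with a library left out. Apart from Rpl34 and Rps2, none of these passed the test under those settings. The cause was not tested. With 3 libraries per group, the smallest log2 fold change called among members was -0.22.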
